A study of Mus musculus with 9 samples.

Results

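R1 mouse embryonic stem (ES) cells were compared with P19 mouse embryonal carcinoma cells across all genes of a whole-transcript microarray. The members were chosen by their labels alone: 3 arrays of R1 and 3 arrays of P19, 6 of the 9 samples of the series. The remaining 3 arrays hold pluripotent stem cells derived from P19 cells, and they enter here through the shared estimate of the spread and where their values stand beside a block of genes. All lines received the same daily-changed medium with 15% fetal bovine serum and 1000 units/ml leukemia inhibitory factor. The methods place the pluripotent stem cell lines on a layer of mouse embryonic fibroblasts blocked with mitomycin C and name no such layer for P19, and they call the ES cells feeder free when collected for the arrays. The labels name no added gene or drug for these lines. The arrays of each line are labelled as biological replicates, and whether each came from its own culture is not said, so the p-values measure only the spread between these arrays. P19 and R1 were each a single line, and the lines come from mice of different strains. The state of the cells, the strain, the history of each line and the feeder layer therefore cannot be told apart.

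Embryonal carcinoma cells are the stem cells of teratocarcinomas. They share with ES cells the core transcription factors of pluripotency, but they have passed through growth as a tumor. P19 cells are known for forming nerve-like and muscle-like cells when they are induced to differentiate. ES cells come directly from the blastocyst and, with leukemia inhibitory factor, hold a state close to that of the early epiblast, which can contribute to all tissues of a chimera.

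The labels were checked with core pluripotency markers. Pou5f1, the transcription factor Oct4, had intensities of 2268, 2249 and 2071 on the P19 arrays and 1372, 1391 and 1647 on the R1 arrays. Sox2, its partner factor, was at 722, 683 and 589 in P19 and 917, 901 and 835 in R1, and Tdgf1, a Nodal co-receptor of pluripotent cells, at 1699.6, 1700.3 and 1936 in P19 and 2244, 2206 and 2374 in R1. The 3 genes were bright on every array of both lines, so they do not show which label is which line. They did not pass the call used here, which asked for a Benjamini-Hochberg adjusted p from limma under 0.01 and a change of over 2-fold. Of 19 core markers measured, 5 passed it as higher in R1 and 0 as lower, against 3.85% and 3.46% of all genes. The 5 were Zfp42, Dppa4, Dppa2, Fgf4 and Nanog. Nanog, another core factor, was called: it was at 186, 187 and 159.6 in P19 and 956, 939 and 846 in R1, with a log2 difference (R1 minus P19) of 2.36 ± 0.099 (SE; adjusted p = 7.63e-10).

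Arrays of a line lay close together. Pearson's r of log2 values was 0.993 to 0.996 within P19, 0.989 to 0.998 within R1 and 0.942 to 0.951 between the lines. R1 replicates 1 and 2 were the closest pair, with a median absolute log2 difference of 0.0703 and 1 probe set over 2-fold apart. R1 replicate 3 stood 0.187 and 0.174 from them, with 139 and 129 probe sets over 2-fold apart, while the pairs of P19 stood 0.101 to 0.138 apart. Counts that lead a paragraph were therefore repeated without R1 replicate 3, and they are given where they changed by over 1.5 times or where a named gene lost its call.

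R1 and P19 differed in 1457 of 19938 genes, which is 7.31% of the genes tested, each taken by its brightest probe set. Of these, 767 were higher in R1 (3.85% of all genes) and 690 were lower (3.46%). The intensities of the 6 arrays did not overlap between the lines in any of the 1457 called genes, while this was so in 47.4% of all genes. For a called gene, separate arrays are therefore no further support. The rises were larger than the falls: the median log2 difference of the called genes was 1.47 for those higher in R1 and -1.30 for those lower, and 186 genes rose over 4-fold while 97 fell over 4-fold. Many of the rises started from a level that the array barely separates from its floor. P19 was below the typical array median of 16.7 in 350 of the 767 higher genes (45.6%), and R1 was below it in 207 of the 690 lower genes (30.0%), so that these folds are not exact. Adding 16 to every intensity before taking log2 left 409 genes higher and 319 lower. A gene that several probe sets measure usually gave 1 answer: of 173 further probe sets of called genes, 169 had the sign of the brightest, 118 carried the same call and 0 the opposite call.

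**Figure D1:**
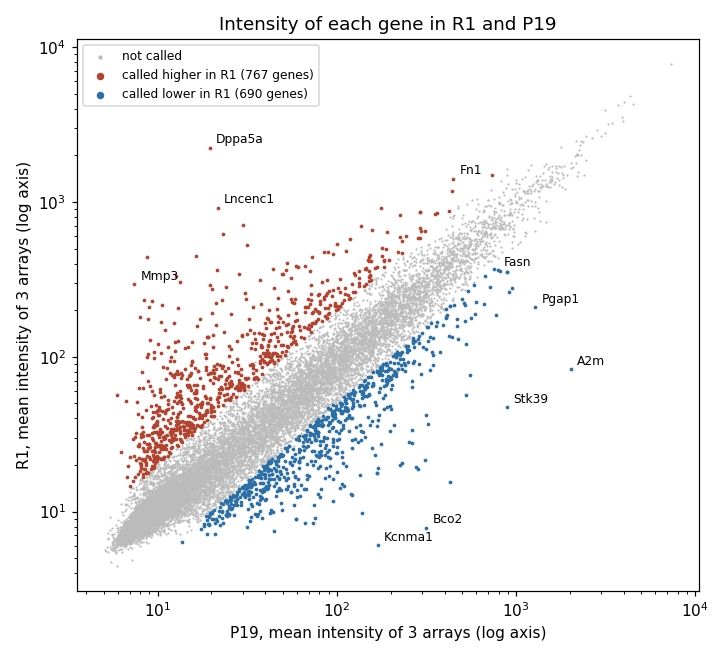
Mean intensity of 3 arrays in P19 (horizontal, log axis) and in R1 (vertical, log axis) for each of 19938 genes, with called genes in colour. The called genes lie on both sides of the diagonal, 767 above it and 690 below it, and the rises reach farther than the falls, led by Dppa5a above and Bco2 below.

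The genes that fell most in R1 had unlike functions. Bco2, an enzyme that cleaves carotenoids, fell the most and was at 314, 332 and 302 on the P19 arrays and 8.38, 7.59 and 7.49 on the R1 arrays, a log2 difference of -5.34 ± 0.10 (SE; adjusted p = 1.26e-12). A2m, the protease inhibitor alpha-2-macroglobulin, was the brightest called gene of P19, at 1902, 2003 and 2193 in P19 and 73.2, 71.1 and 104 in R1, a difference of -4.64 ± 0.14 (SE; adjusted p = 4.25e-11). Stk39, a kinase that acts on ion cotransporters, was at 847, 886 and 936 in P19 and 48.1, 42.6 and 50.3 in R1, a difference of -4.25 ± 0.10 (SE; adjusted p = 9.51e-12). In all 3 genes every P19 array was more than 10 times as bright as every R1 array. Among the other large falls were Car14, a carbonic anhydrase (-3.93 ± 0.12), Cyp2b23, a cytochrome P450 (-3.86 ± 0.14), Ehd3, a protein of endosome traffic (-3.84 ± 0.0993), and Ldb2, a cofactor of LIM-domain factors (-3.84 ± 0.12). Cntfr, the receptor for ciliary neurotrophic factor and a partner of the LIF receptor chain gp130, was at 176, 165 and 161 in P19 and 18.2, 19.5 and 15.2 in R1, and Npy, the precursor of neuropeptide Y, at 141, 118 and 104 in P19 and 13.9, 12.5 and 11.8 in R1. Both were near or below the array median in R1 and well above it in P19. Pgap1, an enzyme that remodels lipid anchors of surface proteins, stayed bright in both lines and still fell, from 1295, 1279 and 1270.2 in P19 and 194, 206 and 225 in R1. Gpc3, the surface proteoglycan glypican 3, was at 697, 781 and 837 in P19 and 179, 186 and 194 in R1.

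Among the 20 largest rises, some belong to neither the pluripotency network nor the matrix. Pla2g1b, a secreted phospholipase A2, was at 26.8, 30.3 and 32.9 in P19 and 708, 693 and 725 in R1, a log2 difference of 4.57 ± 0.12 (SE; adjusted p = 1.68e-11). Slc27a2, which imports and activates fatty acids, was at 13.7, 12.6 and 13.03 in P19 and 205, 202 and 215 in R1. Zfp640 and Zfp980, zinc finger genes, were at 30.8, 22.7 and 15.99 in P19 and 669, 698 and 495 in R1 for the former and 30.4, 36.8 and 27.8 in P19 and 539, 565 and 482 in R1 for the latter. In all 4 the lowest R1 array was far above the highest P19 array. Ptgs2, the inducible enzyme of prostaglandin synthesis, rose by 4.34 ± 0.15 and Plk2, a stress-induced kinase, by 4.03 ± 0.18 on the log2 scale. Fn1, the matrix protein fibronectin, was not among the 20 largest rises. It was among the brightest called genes of R1, at 446, 469.6 and 426 in P19 and 1356, 1338 and 1549 in R1.

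Gene lists by function placed the differences. The 51 lists held 1097 measured genes, of which 208 (18.96%) were higher in R1 and 74 (6.75%) lower, and 1175 called genes stood in no list. The lists were chosen with earlier results of these data known and lean toward genes of pluripotent and early embryonic cells, so their share of called genes is above that of all genes by their choice. The median over all genes of the log2 difference was 0.019. The lists are short, so a count of 0 in a direction is near the share of all genes called (3.85% higher and 3.46% lower).

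**Figure D2:**
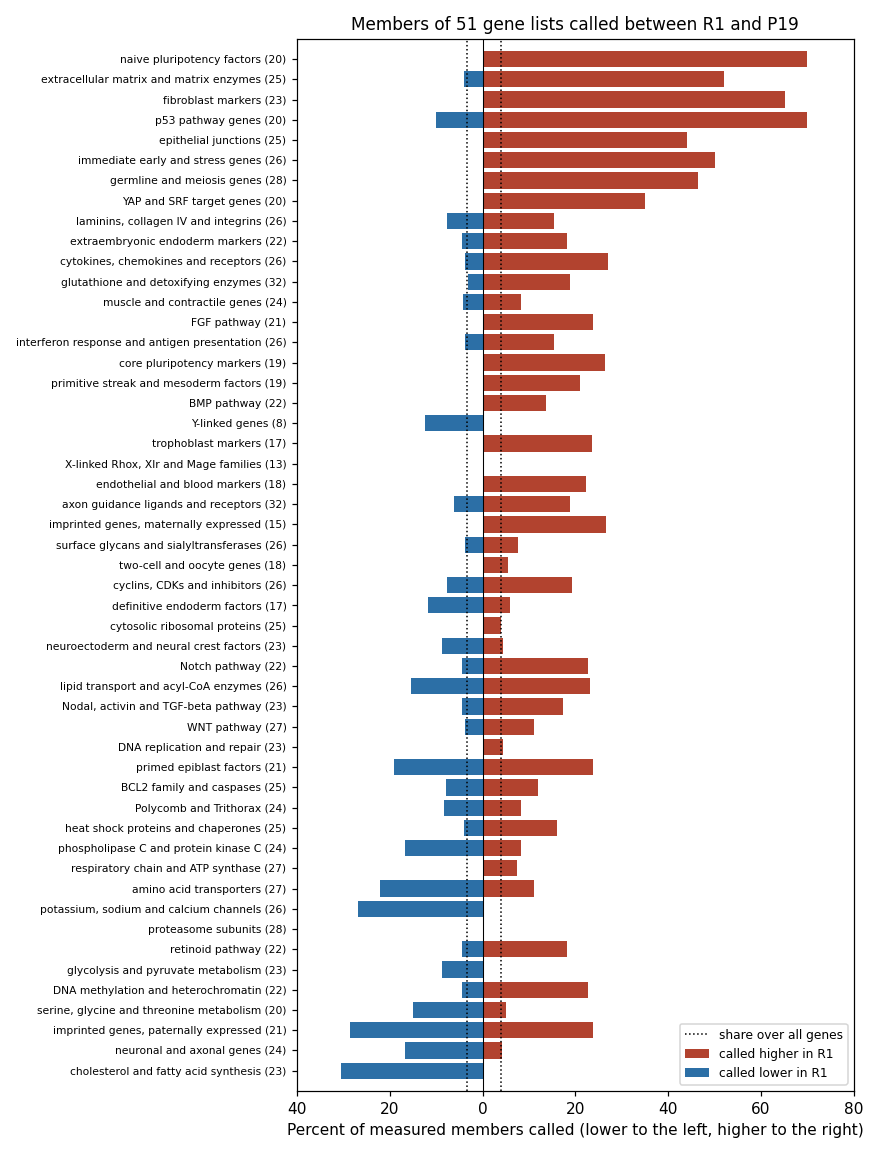
Percent of the measured members of each of 51 gene lists called lower (left, blue) or higher (right, red) in R1, ordered by the median log2 difference of the list, with the number of measured members in parentheses and the share over all genes as dotted lines. Lipid synthesis and the ion channels stand out by calls in the lower direction alone, and no subunit of the proteasome was called.

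Marker genes of fibroblasts are given because the methods name a fibroblast layer for the stem cell lines and none for P19. Of 23 measured markers, 15 were higher in R1 and 0 lower, against 3.85% and 3.46% of all genes. Their summed intensity was 1248 to 1272 over the P19 arrays and 3419 to 4105 over the R1 arrays. None of them is listed at 0. In R1, Dcn, the proteoglycan decorin, was at 196, 186 and 313, Prrx1, a factor of limb mesenchyme, at 94.5, 93.9 and 111, and Col1a2, a collagen I chain, at 222, 226 and 247, while in P19 the 3 lay between 8.17 and 25.5. In bulk RNA, fewer cells of a type and less RNA per cell cannot be told apart. Other groups had called genes in the same direction: 13 of 25 genes of the extracellular matrix were higher and 1 lower, 7 of 20 YAP and SRF target genes were higher and 0 lower, and 13 of 26 immediate early and stress genes were higher and 0 lower. With 16 added to the intensities, 10 fibroblast markers, 12 matrix genes, 2 YAP and SRF target genes and 8 immediate early and stress genes were higher. The part of the fibroblast markers in these groups was not tested.

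Among enzymes that make fatty acids and cholesterol, calls were in the lower direction only. Of 23 measured genes, 7 were lower and 0 higher, against 3.46% and 3.85% of all genes. The list's median log2 difference, -0.68, was the lowest of the 51 lists, while the median over all genes was 0.019. Scd1, the desaturase that makes oleate, was at 258, 287 and 338 on the P19 arrays and 71.6, 74.7 and 86.3 on the R1 arrays, a log2 difference of -1.92 ± 0.12 (SE; adjusted p = 4.19e-08). Fads1 and Fads2, the desaturases of polyunsaturated fatty acids, were at 327, 356 and 455 in P19 and 92.6, 92.6 and 139 in R1 for Fads1 and 493, 509 and 559 in P19 and 139, 145 and 229 in R1 for Fads2. Fasn, fatty acid synthase, was at 789, 808 and 771 in P19 and 382, 385 and 320.3 in R1, a difference of -1.13 ± 0.12 (SE; adjusted p = 7.03e-06). Every P19 array was above every R1 array for these 4 genes, as for every called fall. The R1 arrays kept intensities well over the array median. Acaca, acetyl-CoA carboxylase, the committed step of the same pathway, was called lower as well, and so was Dhcr7, the last enzyme of cholesterol synthesis (-1.12 ± 0.12). Srebf1, a master regulator of lipogenic genes, was at 116, 107 and 109 in P19 and 54.1, 52.2 and 51.6 in R1 and was named after its values were seen. Not the whole pathway was called: Acly, which makes cytosolic acetyl-CoA, was at 517, 513 and 524 in P19 and 504, 518 and 554 in R1, and Insig1, which holds back the SREBP regulators, at 414, 468 and 494 in P19 and 387, 404 and 452 in R1, and the arrays of the lines overlapped for both. Scd2, another desaturase, missed the fold limit (-0.93 ± 0.12). Leaving out single arrays gave 7 to 10 lower genes.

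Genes of lipid uptake and breakdown went both ways. Of 26 measured genes of lipid transport and acyl-CoA handling, 6 were higher in R1 and 4 lower, against 3.85% and 3.46% of all genes, and 3 were higher with 16 added to the intensities. The 4 lower ones were Fabp5, a fatty acid carrier, at 163, 123 and 134 in P19 and 33.01, 34.3 and 31.3 in R1, Lpl, lipoprotein lipase (-1.90 ± 0.11), Acsl4, which activates arachidonate (-1.66 ± 0.10), and Cpt2, of mitochondrial fatty acid import (-1.61 ± 0.15). Apoe, the lipoprotein of cholesterol transport, rose together with Slc27a2 and was at 95.6, 126 and 115 in P19 and 474, 466 and 503 in R1. The 6 arrays separated the lines for each of these genes, as for every called gene.

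Serine synthesis and amino acid uptake differed in the same direction as lipid synthesis for most called members. Of 20 measured genes of serine, glycine and threonine metabolism, 3 were lower in R1 and 1 higher, against 3.46% and 3.85% of all genes. Phgdh, the first enzyme of serine synthesis, was at 133, 146 and 163 on the P19 arrays and 64.6, 50.5 and 50.9 on the R1 arrays, a log2 difference of -1.42 ± 0.12 (SE; adjusted p = 6.60e-07), and Psat1, the second enzyme, at 331, 332 and 326 in P19 and 128, 133 and 139.6 in R1, a difference of -1.30 ± 0.0887 (SE; adjusted p = 8.71e-08). Mthfd2, which passes one-carbon units on in mitochondria, was at 254, 290.2 and 247 in P19 and 61.4, 66.1 and 81.5 in R1. Every P19 array was brighter than every R1 array for these genes, as for every called fall. Amt, part of the glycine cleavage system, moved the other way, at 43.97, 48.5 and 48.2 in P19 and 177, 169 and 207 in R1, while Gldc, the glycine decarboxylase of that system, was not called (0.45 ± 0.11). Of 27 amino acid transporters, 6 were lower and 3 higher, and 3 were lower with 16 added to the intensities. Slc1a4, a carrier of serine and alanine, was at 168, 157 and 163 in P19 and 20.7, 20.9 and 28.2 in R1, Slc1a5, the glutamine carrier, at 192, 196 and 172 in P19 and 51.7, 50.2 and 67.2 in R1, and Slc6a9, the glycine carrier, at 63.6, 54.6 and 70.5 in P19 and 14.2, 11.8 and 18.2 in R1. All 3 were lower on every R1 array, as every called fall was. Slc7a7, which exports basic amino acids, was higher in R1, at 37.4, 41.99 and 45.8 in P19 and 198, 198 and 201 in R1, and so was Slc6a8, the creatine carrier (2.004 ± 0.11). Slc7a5, the main carrier of large neutral amino acids, was bright in both lines and missed the fold limit (-0.91 ± 0.13).

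Few genes of energy metabolism were called, beside 3.85% higher and 3.46% lower over all genes. Of 23 genes of glycolysis, 2 were lower in R1 and 0 higher: Aldoc, an aldolase isoform, at 159, 195 and 365 in P19 and 74.9, 77.8 and 89.4 in R1, and Pfkm, a phosphofructokinase isoform, at 208, 209 and 239.7 in P19 and 74.2, 76.96 and 99.1 in R1. Pkm, pyruvate kinase, had a log2 difference of 0.11 ± 0.0933 and Pgk1, phosphoglycerate kinase, of -0.31 ± 0.0992, and neither was called. Of 27 genes of the respiratory chain, 2 were higher and 0 lower, Cox6b2, a testis isoform of a cytochrome oxidase subunit (2.02 ± 0.12), and Ndufa4l2 (1.71 ± 0.24). Both were at or below the array median in P19, and 1 of the 2 calls was lost with 16 added to the intensities. Without P19 replicate 3, 1 glycolysis gene was called higher and 1 respiratory gene lower. Among 28 subunits of the proteasome, 0 were called in either direction, and among 25 cytosolic ribosomal proteins only Rps3 was called, higher in R1 (1.24 ± 0.0993).

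Voltage-gated and potassium channels were called in the lower direction only. Of 26 measured channel genes, 7 were lower in R1 and 0 higher, against 3.46% and 3.85% of all genes. Kcnma1, the calcium-activated large potassium channel, was at 142, 146 and 219 on the P19 arrays and 5.71, 6.83 and 5.66 on the R1 arrays, a log2 difference of -4.78 ± 0.25 (SE; adjusted p = 6.83e-09), with R1 at the floor of the array. Kcnj3, a G protein-gated potassium channel, was at 140.1, 147 and 163 in P19 and 36.02, 42.2 and 43.5 in R1, and Scn8a, a neuronal sodium channel, at 38.2, 34.2 and 42.7 in P19 and 12.1, 11.7 and 12.8 in R1. The lines did not overlap for these genes, as for every called gene. Cacna1h and Cacna1g, T-type calcium channels, and Cacng8, a calcium channel gamma subunit, had log2 differences of -1.22 ± 0.15, -1.08 ± 0.12 and -1.19 ± 0.10, and in R1 they lay below the array median. The called fall of Cacna1g was lost without P19 replicate 3 (-0.99), and only 2 of the 7 remained called with 16 added to the intensities. Kcnk5, a background potassium channel, lay at the fold limit in the other direction (0.995 ± 0.12) and was called higher under quantile normalization (1.06) and without R1 replicate 3 (1.10), P19 replicate 2 (1.02) or P19 replicate 3 (1.002).

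Among signalling enzymes, Plce1, Plcg2 and Prkcb were far lower in R1. Of 24 measured phospholipases C and protein kinases C, 4 were lower and 2 higher, against 3.46% and 3.85% of all genes. The 2 higher ones were Plcb4 and Prkch, and 0 were higher with 16 added to the intensities. Plce1, a Ras-regulated phospholipase C, was at 371, 411 and 502 on the P19 arrays and 15.7, 15.4 and 15.5 on the R1 arrays, a log2 difference of -4.77 ± 0.14 (SE; adjusted p = 5.21e-11). Plcg2, the phospholipase C of immune receptor signalling, was at 518, 545 and 521 in P19 and 49.7, 54.4 and 65.1 in R1, and Prkcb, a diacylglycerol-activated kinase, at 227, 225 and 226 in P19 and 14.9, 17.6 and 26.99 in R1. The summed intensity of the list was 2521 to 2809 over the P19 arrays and 1389 to 1572 over the R1 arrays. Prkci, an atypical protein kinase C, was at 423, 464 and 499 in P19 and 444, 444 and 455 in R1 and was not called.

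Kinesin genes (symbols beginning with Kif) were the symbol family of 20 or more members with the highest share of lower calls. Of 38 measured, 10 were lower in R1 and 0 higher, against 3.46% lower over all genes, and the family's median log2 difference was -0.12. The 10 genes were named after their values were seen. Kif26b, a kinesin of tissue growth, was at 78.8, 88.6 and 67.8 on the P19 arrays and 11.3, 13.4 and 14.3 on the R1 arrays, Kif21b, a neuronal kinesin, at 83.6, 99.3 and 101 in P19 and 15.9, 15.9 and 16.6 in R1, and Kif5c, a neuronal heavy chain, at 67.8, 78.9 and 91.8 in P19 and 18.4, 20.6 and 28.3 in R1. Kif14, which acts in cell division, was at 217, 205 and 214 in P19 and 74.4, 75.2 and 85.9 in R1, and Kif1b, a carrier of vesicles and mitochondria, at 232, 245 and 275 in P19 and 77.2, 80.4 and 121 in R1. Every P19 array was brighter than every R1 array in these 5 genes, as in every called fall. The others were Kif1a, Kif1c, Kif21a, Kif24 and Kif3a, with log2 differences of -1.40 to -1.04, and leaving out single arrays gave 8 to 11 lower kinesin genes, while 5 were lower with 16 added to the intensities.

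Nerve cell genes had calls in both directions, beside 3.85% higher and 3.46% lower over all genes. Of 24 neuronal and axonal genes, 4 were lower and 1 higher: Gap43, a growth cone protein, was at 189.9, 175 and 233 in P19 and 74.03, 69.97 and 78.9 in R1, Nefm, a neurofilament chain, at 37.6, 35.96 and 39.02 in P19 and 10.02, 11.2 and 9.04 in R1, and Elavl3, a neuronal RNA-binding protein, at 83.95, 81.2 and 75.8 in P19 and 27.9, 29.1 and 28.96 in R1. Syt1, a synaptic vesicle protein, had a log2 difference of -1.03 ± 0.15 and lost its call without P19 replicate 3 (-0.85) or without R1 replicate 3. Ina, the intermediate filament internexin, went the other way, at 72.1, 50.8 and 58.5 in P19 and 401, 431 and 309.8 in R1. Zic1, a factor of the neural plate, was at 107, 86.8 and 90.8 in P19 and 11.6, 11.8 and 11.9 in R1, a log2 difference of -3.01 ± 0.11 (SE; adjusted p = 2.43e-10), and Nes, the intermediate filament nestin of neural progenitors, at 70.00, 68.3 and 88.6 in P19 and 28.5, 25.1 and 32.99 in R1. Pax6, a factor of the eye and forebrain, was higher in R1 and low in both lines, at 11.6, 8.64 and 10.3 in P19 and 28.8, 28.1 and 22.2 in R1. Of the 23 genes of neuroectoderm and neural crest, 1 was higher and 2 lower (2 higher without R1 replicate 3, 0 higher with 16 added to the intensities), and 14 lay under the array median in P19 and R1 alike.

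Imprinted genes were called in both directions, beside 3.85% higher and 3.46% lower over all genes. Imprinted genes are read from the paternal or the maternal copy alone and depend on DNA methylation marks set in the germline. Of 21 paternally expressed genes, 6 were lower in R1 and 5 higher, and of 15 maternally expressed genes, 4 were higher and 0 lower. The maternal list had 20 entries, of which these 15 were measured. The 4 higher ones were Dcn, Igf2r, Cdkn1c and Rian, and the imprinted gene H19 is not among them. The paper lists H19 among the genes that differ between the lines. The counts of the maternal list therefore do not show that H19 was unchanged. In the maternal list, 2 were higher with 16 added to the intensities, and 1 was lower without P19 replicate 1 or R1 replicate 3. Plagl1, a zinc finger growth regulator, was at 278, 315 and 377 on the P19 arrays and 36.7, 34.5 and 38.3 on the R1 arrays, a log2 difference of -3.14 ± 0.13 (SE; adjusted p = 7.11e-10). Mest, a mesodermal hydrolase, was at 956, 923 and 873 in P19 and 260.0, 262 and 269 in R1, a difference of -1.80 ± 0.0896 (SE; adjusted p = 4.53e-09), and Magel2, of the Prader-Willi region, at 89.4, 82.7 and 68.9 in P19 and 19.3, 21.4 and 18.6 in R1. Igf2, the fetal growth factor, went the other way, at 22.8, 23.6 and 28.3 in P19 and 83.9, 94.7 and 74.2 in R1, a difference of 1.76 ± 0.12 (SE; adjusted p = 7.85e-08), and so did its clearance receptor Igf2r, at 61.3, 68.3 and 78.4 in P19 and 199.6, 205 and 223 in R1. Sfmbt2, a Polycomb-related gene of the placenta, was at 21.4, 19.7 and 22.5 in P19 and 228, 205 and 232 in R1, and Zdbf2, a regulator of growth and feeding, at 55.6, 73.3 and 72.5 in P19 and 202, 201 and 226 in R1. The arrays of the lines did not overlap in any of these 7 genes, as in every called gene. Peg10, an imprinted gene of retroviral origin, was among the brightest of the list in both lines and was not called (-0.26 ± 0.12). Neither was Meg3, a maternally expressed noncoding RNA (-0.34 ± 0.14), while Rian, a noncoding RNA of the same cluster, was higher (1.10 ± 0.12). Dcn counts both as a maternally expressed gene and as a fibroblast marker.

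Several genes of the DNA methylation machinery also differed. Of 22 measured genes of DNA methylation and heterochromatin, 5 were higher in R1 and 1 lower, against 3.85% and 3.46% of all genes. With 16 added to the intensities, 3 were higher. Dnmt3l, the cofactor of the de novo methyltransferases, was at 24.7, 26.1 and 21.98 on the P19 arrays and 302, 307 and 233 on the R1 arrays, a log2 difference of 3.53 ± 0.12 (SE; adjusted p = 1.31e-10). Zfp57, which guards imprint marks, was at 54.2, 57.9 and 45.4 in P19 and 401, 399.8 and 406 in R1, a difference of 2.94 ± 0.11 (SE; adjusted p = 2.34e-10). Dnmt3a, a de novo methyltransferase, moved against them, at 364, 352 and 313 in P19 and 79.3, 75.5 and 109.9 in R1, a difference of -1.98 ± 0.14 (SE; adjusted p = 1.01e-07). The P19 and R1 arrays were separated in each of the 3 genes, as in every called gene. Tet2, which oxidizes methylcytosine, was at 41.5, 55.5 and 58.8 in P19 and 162, 167 and 151 in R1, while its relative Tet1 was higher in R1 under the fold limit (0.87 ± 0.0885), and Dnmt3b, the other de novo enzyme, was lower under it (-0.59 ± 0.10). Among 24 Polycomb and Trithorax genes, Eed, a core subunit of PRC2, and Sfmbt2 were higher, and Cbx2, a subunit of PRC1, and Kdm6b, a histone H3 demethylase, were lower. Eed was at 187, 202 and 174 in P19 and 491, 495 and 512 in R1 and Cbx2 at 154, 137 and 136 in P19 and 60.7, 57.5 and 48.7 in R1. Ezh2 and Suz12, the partners of Eed in PRC2, were not called, with log2 differences of 0.03 ± 0.12 and -0.14 ± 0.10.

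**Figure D3:**
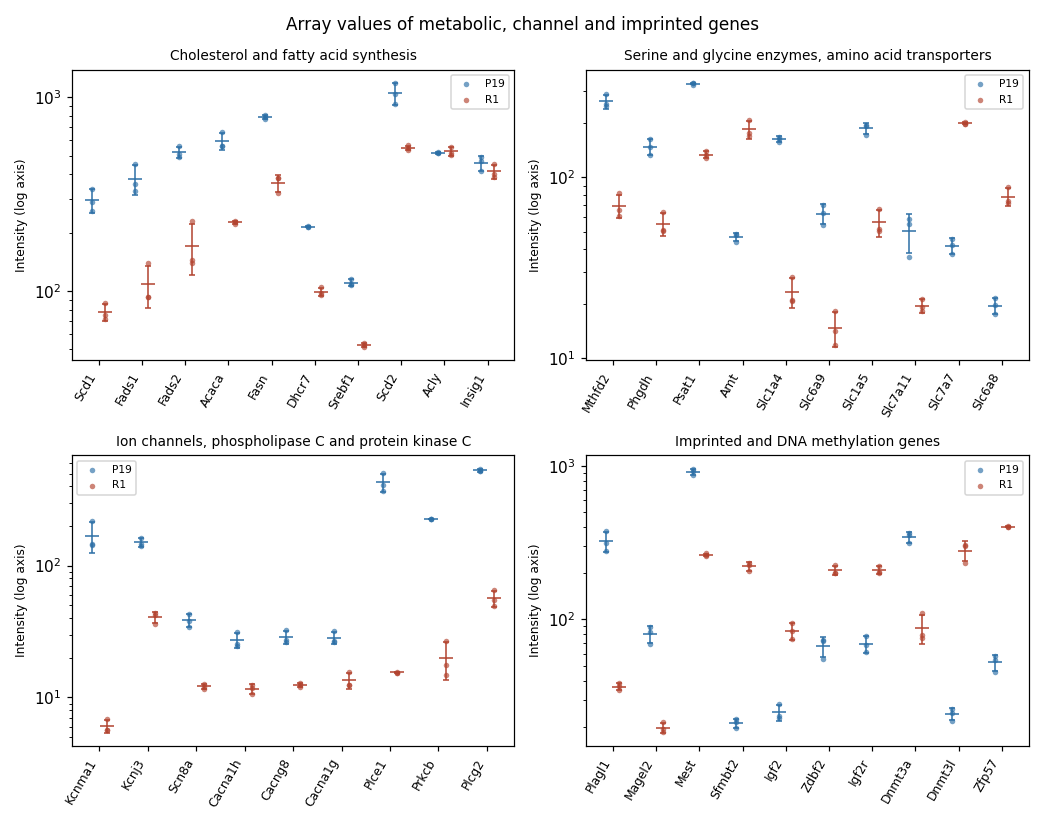
Intensity on each of the 3 arrays per line (points, log axis) with mean ± SD (bars) for genes of lipid synthesis, of serine, glycine and amino acid transport, of ion channels and phospholipase C, and of imprinting and DNA methylation. The channels and phospholipases drawn are called falls, so P19 points lie above R1 points for all of them. The imprinted genes split, with Plagl1, Magel2 and Mest higher in P19 and Sfmbt2, Igf2, Zdbf2 and Igf2r higher in R1.

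Genes of the germline were called in the higher direction only, while 3.85% of all genes were higher and 3.46% lower. Of 28 measured, 13 were higher in R1 and 0 lower, 6 were higher with 16 added to the intensities, and 8 lay under the array median in P19 and R1 alike. Tdrd12, of the piRNA pathway that silences transposons, was at 18.5, 23.95 and 18.2 on the P19 arrays and 262, 268 and 291 on the R1 arrays, a log2 difference of 3.77 ± 0.13 (SE; adjusted p = 1.58e-10). Stag3, a subunit of the meiotic cohesin, was at 10.3, 10.6 and 12.6 in P19 and 57.3, 55.6 and 101 in R1, and Ddx4, the germ cell helicase Vasa, at 9.29, 9.23 and 12.1 in P19 and 43.8, 37.3 and 54.3 in R1. The lines did not overlap in these genes, as in every called gene. Mael, another gene of the piRNA pathway, was at 8.25, 9.01 and 7.69 in P19 and 32.9, 34.7 and 30.5 in R1.

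Of 25 epithelial genes, 11 were higher in R1 and 0 lower, against 3.85% and 3.46% of all genes. With 16 added to the intensities, 7 were higher. Epcam, an epithelial adhesion protein, was at 266, 291 and 243 in P19 and 213, 224 and 274 in R1 and was not called. Cdh1, the adhesion protein E-cadherin, was at 102, 99.1 and 54.4 on the P19 arrays and 456, 445 and 517 on the R1 arrays, a log2 difference of 2.52 ± 0.19 (SE; adjusted p = 2.68e-07). Esrp1, a splicing factor of epithelial cells, was at 32.7, 34.4 and 25.6 in P19 and 254, 276 and 248 in R1, and Cldn4, a claudin of tight junctions, at 20.1, 16.2 and 21.03 in P19 and 112, 115 and 174 in R1. Grhl2, a transcription factor of epithelia, was at 27.4, 26.5 and 21.2 in P19 and 106, 109 and 86.5 in R1. R1 was above P19 on every array for these 4 genes, as for every called rise.

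Other lists are given by their counts, to be read beside 3.85% higher and 3.46% lower over all genes. In the glutathione and detoxifying list, 6 of 32 genes were higher and 1, Cyp2b23, lower, with Ephx1, an epoxide hydrolase, at 19.97, 19.7 and 22.4 in P19 and 72.3, 73.5 and 114 in R1. Among heat shock proteins and chaperones, 4 of 25 were higher and 1 lower. Axon guidance genes had 6 of 32 higher and 2 lower, and laminins, collagen IV and integrins had 4 of 26 higher and 2 lower. For lineage markers the higher and lower counts were 5 and 4 of 21 for the primed epiblast, 4 and 0 of 19 for the primitive streak and mesoderm, 1 and 2 of 17 for the definitive endoderm, 4 and 1 of 22 for the extraembryonic endoderm, and 4 and 0 of 17 for the trophoblast. Muscle genes had 2 of 24 higher and 1 lower, with 4 higher without R1 replicate 3, and endothelial and blood markers 4 of 18 higher and 0 lower. Of the BMP list, 3 of 22 were higher and 0 lower, and of the Nodal, activin and TGF-beta list 4 of 23 were higher and 1 lower. The core pluripotency list had 5 of 19 higher and 0 lower, the naive list 14 of 20 and 0, and the p53 list 14 of 20 and 2. Surface glycans had 2 of 26 higher and 1 lower. Both higher calls, B3gnt7 and B4galt6, were lost without R1 replicate 1, R1 replicate 2 or P19 replicate 3 and with each array centred on its median. Genes of 2-cell embryos and oocytes had 1 of 18 higher and 0 lower, and the X-linked Rhox, Xlr and Mage families 0 of 13 in either direction. With 16 added to the intensities, the higher counts were 3 for the glutathione list, 1 for laminins, collagen IV and integrins, 1 for muscle, 2 for endothelial and blood markers and 2 for the Nodal, activin and TGF-beta list. The lower counts were then 2 for the primed epiblast, 1 for axon guidance, for laminins, collagen IV and integrins and for the p53 list, and 0 for the definitive endoderm, the matrix, muscle, heat shock, surface glycan and Nodal, activin and TGF-beta lists. Without R1 replicate 3, 2 genes were lower in the extraembryonic endoderm list, 1 each in the trophoblast and BMP lists, and 2 were higher in the list of 2-cell embryos and oocytes. Without P19 replicate 1, 1 was lower in the trophoblast and BMP lists and 1 Y-linked gene was higher. Without P19 replicate 3, 1 was lower in the BMP list and 1 in the definitive endoderm list.

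Signalling pathways had called genes in both directions, and over all genes 3.85% were higher and 3.46% lower. Of 21 FGF pathway genes, 5 were higher and 0 lower, among them the ligands Fgf17, at 13.2, 12.7 and 14.6 in P19 and 80.4, 74.6 and 63.05 in R1, and Fgf4, the autocrine FGF of ES cells, at 43.1, 44.9 and 26.3 in P19 and 138, 148 and 137 in R1. Bmp4, a BMP ligand known to act with leukemia inhibitory factor in self-renewal, was at 14.2, 14.6 and 13.8 on the P19 arrays and 117, 119 and 104 on the R1 arrays, a log2 difference of 2.99 ± 0.11 (SE; adjusted p = 2.44e-10). Lefty2, an inhibitor of Nodal, was at 11.6, 13.3 and 10.9 in P19 and 78.01, 82.5 and 136 in R1, and Tgfb3, a TGF-beta ligand, was lower in R1, at 43.4, 48.9 and 41.7 in P19 and 15.3, 15.4 and 13.4 in R1. Of 22 Notch pathway genes, 5 were higher and 1 lower. Rbpj, the DNA-binding factor of the pathway, was at 173, 182 and 197 in P19 and 382, 400.2 and 364 in R1, while Hey1, a target gene, was lower (-1.27 ± 0.16). No Notch gene was called with 16 added to the intensities. Of 22 retinoid genes, 4 were higher and 1, Bco2, lower: Crabp1, a carrier of retinoic acid, was at 48.4, 50.5 and 56.9 in P19 and 386, 369 and 336 in R1, and Rarg, a retinoic acid receptor, at 35.7, 38.1 and 40.5 in P19 and 92.9, 101 and 94.4 in R1. The list's median log2 difference was -0.13, 2 were higher with 16 added to the intensities, and 2 were lower when P19 replicate 1 or any R1 replicate was left out. Of 27 WNT pathway genes, 3 were higher and 1 lower, with Lef1, a transcription factor of the pathway, at 85.3, 84.8 and 84.3 in P19 and 244, 243 and 223 in R1. Sfrp2, a secreted WNT antagonist, was the lower one (-1.07 ± 0.16), and its call was lost without R1 replicate 1 (-0.998) or R1 replicate 2 (-0.95). In that list, 2 were lower without P19 replicate 3, and 1 was higher and 0 lower with 16 added to the intensities.

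Most immune genes were not called, and over all genes 3.85% were higher and 3.46% lower. Of 26 genes of the interferon response and antigen presentation, 4 were higher and 1 lower. B2m, the light chain of class I histocompatibility molecules, was at 66.3, 85.4 and 62.4 on the P19 arrays and 224, 221 and 255 on the R1 arrays, a log2 difference of 1.72 ± 0.14 (SE; adjusted p = 4.71e-07). Ddx58, the RNA sensor RIG-I, was at 15.97, 14.1 and 16.4 in P19 and 114, 117 and 144 in R1, and Ifitm1, an interferon-induced membrane protein, at 46.9, 43.6 and 41.2 in P19 and 343, 366 and 399 in R1. Ifngr1, the interferon gamma receptor, was the lower one, at 124, 123 and 138 in P19 and 37.2, 32.8 and 36.2 in R1. Leaving out R1 replicate 2 gave 6 higher genes in this list. Of 26 cytokines, chemokines and receptors, 7 were higher and 1 lower, including the neighbouring chemokine genes Ccl2 and Ccl7, which fibroblasts are known to make. With 16 added to the intensities, 3 were higher and 0 lower in that list, and without P19 replicate 2 or R1 replicate 3, 2 were lower. Lifr, the receptor of leukemia inhibitory factor, was at 266, 255 and 243 in P19 and 167, 163 and 168 in R1 and was not called.

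Cell death and cell cycle genes were called singly, beside 3.85% higher and 3.46% lower over all genes. Among 25 genes of the BCL2 family and caspases, 3 were higher and 2 lower (1 and 0 with 16 added to the intensities). Mcl1, a survival factor, was at 418, 362 and 307 in P19 and 802, 889 and 850.2 in R1, and Bcl2l11, the death factor Bim, at 23.2, 26.9 and 23.8 in P19 and 66.9, 65.2 and 57.4 in R1. Casp9 and Casp8, initiator caspases, were lower, with log2 differences of -1.15 ± 0.13 for Casp9 and -1.10 ± 0.12 for Casp8. Among 26 cyclins, kinases and inhibitors, 5 were higher and 2 lower (3 and 0 with 16 added to the intensities, and 1 lower without P19 replicate 3). Rb1, the retinoblastoma protein that restrains the cell cycle, was at 20.7, 21.7 and 34.7 on the P19 arrays and 109, 116 and 113 on the R1 arrays, a log2 difference of 2.17 ± 0.16 (SE; adjusted p = 2.06e-07), and the D-type cyclins Ccnd1 and Ccnd2 were higher as well (1.40 ± 0.11 for Ccnd1 and 1.39 ± 0.10 for Ccnd2). Of 23 genes of DNA replication and repair, only Xrcc5, the Ku80 end-joining factor, was called, at 244, 239.6 and 249.4 in P19 and 564, 579 and 675 in R1. Y-linked genes, 8 of them measured, had 0 higher and 1 lower call: Kdm5d, a histone demethylase, was at 74.8, 79.1 and 73.98 in P19 and 8.08, 7.95 and 11.01 in R1, while Eif2s3y, a translation initiation factor on the same chromosome, was at 174, 149.9 and 145 in P19 and 169.6, 177 and 248 in R1 and was not called.

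MicroRNA genes differed by cluster. A microRNA binds its targets mainly through its seed, bases 2 to 8, so genes of unlike position can act on the same targets. The array measures the precursor or primary transcript, not the mature RNA, and 187 of 296 measured miRNA genes lay under the array median in P19 and R1 alike. The mature sequences of the clusters that differed are shown, with the seed in capitals. The clusters of chromosomes X and 14, with differences of opposite sign, share the seed AAAGUGC, though only Mir106a of the genes shown with it was called. They are given 5′ to 3′ from RefSeq, with positions on GRCm38.p6, and 1 member, miR-302a, is named only.
miR-302b-3p (chr3:127545275-127545297, strand +): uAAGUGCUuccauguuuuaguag
miR-302c-3p (chr3:127545406-127545427, strand +): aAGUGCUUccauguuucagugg
miR-302d-3p (chr3:127545665-127545687, strand +): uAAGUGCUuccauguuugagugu
miR-367-3p (chr3:127545779-127545800, strand +): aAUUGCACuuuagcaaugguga
miR-106a-5p (chrX:52742541-52742563, strand -): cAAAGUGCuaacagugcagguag
miR-20b-5p (chrX:52742159-52742181, strand -): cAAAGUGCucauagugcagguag
miR-363-3p (chrX:52741697-52741718, strand -): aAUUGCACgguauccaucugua
miR-17-5p (chr14:115043684-115043706, strand +): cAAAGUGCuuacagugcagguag
miR-20a-5p (chr14:115044183-115044205, strand +): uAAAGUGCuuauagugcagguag
miR-19a-3p (chr14:115044048-115044070, strand +): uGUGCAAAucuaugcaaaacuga

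Of these, miR-302b and miR-302d have the seed AAGUGCU. The seed of miR-302c is AGUGCUU, and miR-17, miR-20a, miR-106a and miR-20b share AAAGUGC. The seed AUUGCAC joins miR-367 of chromosome 3 with miR-363 of chromosome X.

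The 5 genes of the miR-302 cluster were all called lower in R1. Mir302c was at 110.1, 119.8 and 57.7 on the P19 arrays and 24.95, 27.8 and 27.3 on the R1 arrays, a log2 difference of -1.78 ± 0.22 (SE; adjusted p = 2.38e-05). Mir302b was at 46.1, 52.3 and 27.1 in P19 and 16.3, 14.6 and 18.02 in R1, Mir302a at 72.5, 76.3 and 37.1 in P19 and 24.7, 29.4 and 21.4 in R1, Mir302d at 98.5, 124 and 51.3 in P19 and 38.1, 42.3 and 31.6 in R1 and Mir367 at 44.1, 56.7 and 28.97 in P19 and 18.2, 17.2 and 16.7 in R1. P19 replicate 3 was the lowest P19 array in each of the 5 and still lay above every R1 array. The call of Mir302d was lost without P19 replicate 2 (-0.94). All but Mir302c lost their call with 16 added to the intensities, and also under the methods' one-way ANOVA after Benjamini-Hochberg adjustment. The 5 genes are neighbours that lie within a common host transcript, so they are not 5 separate observations.

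The other 2 clusters were looked at after their values were seen. On chromosome X, Mir106a was lower in R1, at 36.5, 29.96 and 25.4 in P19 and 13.6, 14.1 and 16.5 in R1, a log2 difference of -1.05 ± 0.13 (SE; adjusted p = 2.42e-05), while Mir20b (-0.65 ± 0.14) and Mir363 (-0.66 ± 0.19) did not pass the fold limit. On chromosome 14, the host transcript Mir17hg was higher in R1, at 44.1, 29.8 and 32.9 in P19 and 72.96, 71.9 and 76.6 in R1, a difference of 1.07 ± 0.16 (SE; adjusted p = 1.75e-04), and so was Mir19a, at 30.6, 30.3 and 25.3 in P19 and 62.2, 71.05 and 50.9 in R1, a difference of 1.09 ± 0.14 (SE; adjusted p = 4.47e-05). Mir18, Mir20a and Mir19b-1 of that cluster had differences of 0.87 ± 0.0993, 0.88 ± 0.12 and 0.90 ± 0.13, under the fold limit. Mir17 was at 15.8, 14.7 and 16.6 in P19 and 21.03, 20.6 and 19.9 in R1. Among the 4 genes shown with the seed AAAGUGC, of 7 mature miRNAs with it in the RefSeq table, Mir106a was called, and Mir17 and Mir20a had differences of the opposite sign under the fold limit. Over all 296 miRNA genes, host transcripts aside, 2 were higher (0.68%) and 7 lower (2.4%). Both shares are under those of all genes, 3.85% and 3.46%. The higher ones were Mir19a and Mir677 (1.06 ± 0.13), and 0 were higher without P19 replicate 3, 1 without R1 replicate 2 and 1 without R1 replicate 3. With 16 added to the intensities, 0 were higher and 1 lower. The other lower one was Mir670, at 32.7, 31.6 and 34.6 in P19 and 8.78, 8.42 and 8.87 in R1, whose host transcript Mir670hg was lower too (-2.09 ± 0.12).

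Small nucleolar RNAs guide the modification of ribosomal RNA and lie mostly in introns of other genes. Of 54 measured, 17 were higher in R1 (31.5%) and 1 lower (1.85%), against 3.85% and 3.46% of all genes. The median log2 difference of the 54 was 0.63. Snord53 was at 25.2, 20.6 and 29.4 on the P19 arrays and 104, 96.8 and 151 on the R1 arrays, a log2 difference of 2.21 ± 0.16 (SE; adjusted p = 1.98e-07), and Snord15a at 40.4, 43.8 and 37.4 in P19 and 144, 141 and 171 in R1. Snora73a, a gene of the U17 RNA of ribosomal RNA processing, was at 178, 149.6 and 128 in P19 and 434, 429 and 458 in R1. R1 replicate 3 was the brightest R1 array for 16 of the 17 higher genes, and it was the array that stood apart. Without it, 11 were higher and 1 lower, and Snord14e (0.83) and Snord82 (0.88) were among those that lost their call. Without P19 replicate 3, 11 were higher as well, and Snord14e again lost its call (0.89). The counts were 9 higher and 0 lower with 16 added to the intensities. Snord118, the U8 RNA of ribosomal RNA processing, was the lower one, at 18.8, 18.8 and 15.1 in P19 and 8.49, 7.47 and 7.17 in R1. The snoRNA genes were named after their values were seen, except Snora75, Snord82 and Snord14e.

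**Figure D4:**
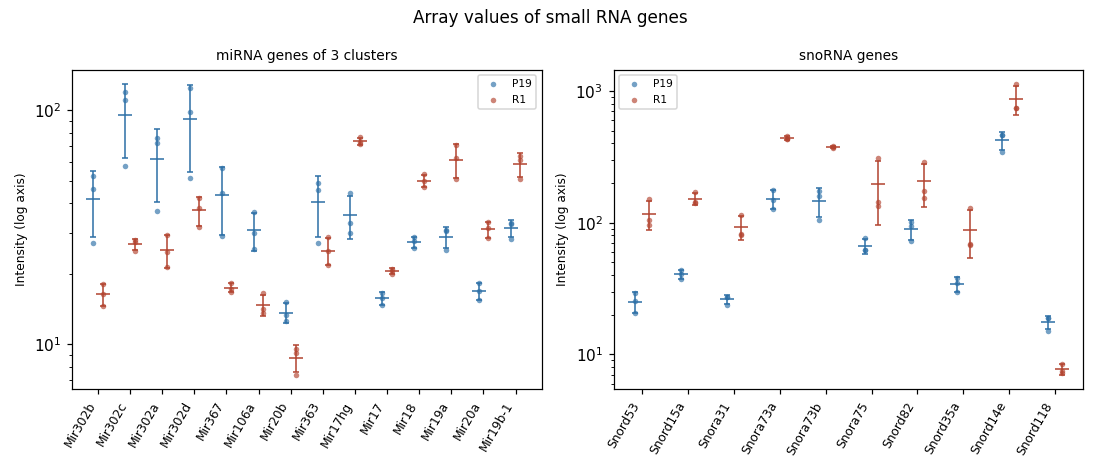
Intensity on each of the 3 arrays per line (points, log axis) with mean ± SD (bars) for miRNA genes of 3 clusters (left) and snoRNA genes (right). The Mir302 and Mir106a clusters lie higher in P19 and the Mir17hg cluster higher in R1, and the highest R1 point in Snora75, Snord82 and Snord35a is R1 replicate 3.

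Some neighbouring genes were called the same way. With genes placed in their order on the RefSeq annotation of GRCm38.p6, 20 runs of 3 or more measured neighbours had the same call. The longest was the miR-302 cluster. Mapk8ip1, Cry2, Slc35c1 and Chst1 on chromosome 2 were lower in R1, where Cry2 is a repressor of the circadian clock, at 126, 128 and 116 in P19 and 52.7, 51.4 and 47.7 in R1. Pctp, Tmem100, Mmd and Hlf on chromosome 11 were lower too, with Hlf, a PAR bZIP transcription factor, at 43.95, 45.02 and 35.4 in P19 and 14.98, 17.3 and 14.2 in R1. Mapk12, Mapk11 and Plxnb2 on chromosome 15 included both p38 kinases of that locus, Mapk11 at 57.8, 62.7 and 46.5 in P19 and 11.8, 12.4 and 15.7 in R1 and Mapk12 at 69.9, 69.05 and 86.1 in P19 and 23.5, 22.3 and 28.5 in R1. With 16 added to the intensities, Slc35c1 (-0.54), Tmem100 (-0.54), Hlf (-0.87) and Plxnb2 (-0.98) lost their calls, so these runs did not stay whole. Runs of higher genes held known units of ES cells, Dppa4, Dppa2 and Morc1 on chromosome 16 and Triml1, Triml2 and Zfp42 on chromosome 8. Morc1, a silencer of retrotransposons in the male germline, was at 11.4, 10.9 and 11.6 in P19 and 91.4, 83.1 and 78.3 in R1, and Triml1 at 9.19, 9.91 and 9.75 in P19 and 87.5, 86.4 and 122 in R1. Zfp980, Zfp600 and Zfp991 on chromosome 4, zinc finger genes of related sequence, were also higher together. Probes of related genes can share signal, so these 3 are uncertain as separate observations.

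Beyond such runs, whole stretches of chromosomes were shifted. Each chromosome was divided into 10 bins by gene order over genes with an intensity of at least 50 in either line, and 2 or more consecutive bins with a median log2 difference beyond 0.25 in size were taken as a block. The rule was set after the values were seen, so the blocks are a description and carry no test. Counts and medians in and outside the blocks come from the same differences that set the blocks, so they are not support for them. It gave 5 blocks. The distal part of chromosome 14, from Rb1 to Pcca, was higher in R1: over its 48 genes of that level the median was 0.92, a ratio of 1.89, and 46 of the 48 had a positive difference. Of all 132 genes measured there, 26 were higher (19.7%) and 0 lower. Relative to the P19 mean, the medians of that block were 0.023, 0.012 and -0.073 on the P19 arrays and 0.87, 0.91 and 0.93 on the R1 arrays. The arrays of each line lay close together there.

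The other 4 blocks were lower in R1. They covered all of chromosome 11 (median -0.38 over 586 genes), 7 of the 10 bins of chromosome 4 (-0.38 over 301 genes), the distal bins of chromosome 6 (-0.47 over 156 genes) and the middle of chromosome 18 (-0.47 over 110 genes). Between 77.8% and 82.1% of the genes in each of these blocks had a negative difference, while it was 55.1% over genes outside the blocks, whose median was -0.061. The shift of a single gene in them is far under the 2-fold limit, at a median ratio of 0.72 to 0.77. Of the 690 lower genes, 191 (27.7%) lay in these 4 blocks, which hold 15.9% of the 19905 genes placed in order. An excess of negative differences and lower calls follows from how these blocks were picked. Outside all blocks, 649 genes were higher (3.91%) and 497 lower (2.99%). On the chromosomes without a block, 6 of 150 bins had a median beyond 0.25, and the medians ran from -0.43 to 0.19.

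The stem cells derived from P19 were set beside the blocks. Over genes outside the blocks their median difference from P19 was -0.12. It was 0.021 in the block of chromosome 4, -0.085 on chromosome 11, -0.026 in the block of chromosome 14 and -0.14 in that of chromosome 18, and the R1 arrays differed from them by -0.42, -0.33, 0.91 and -0.43 there. In the block of chromosome 6 the derived line differed from P19 by -0.23, and R1 differed from it by -0.29. These comparisons share the arrays of P19 or R1, so they are not independent, and no DNA was measured in the files used here.

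**Figure D5:**
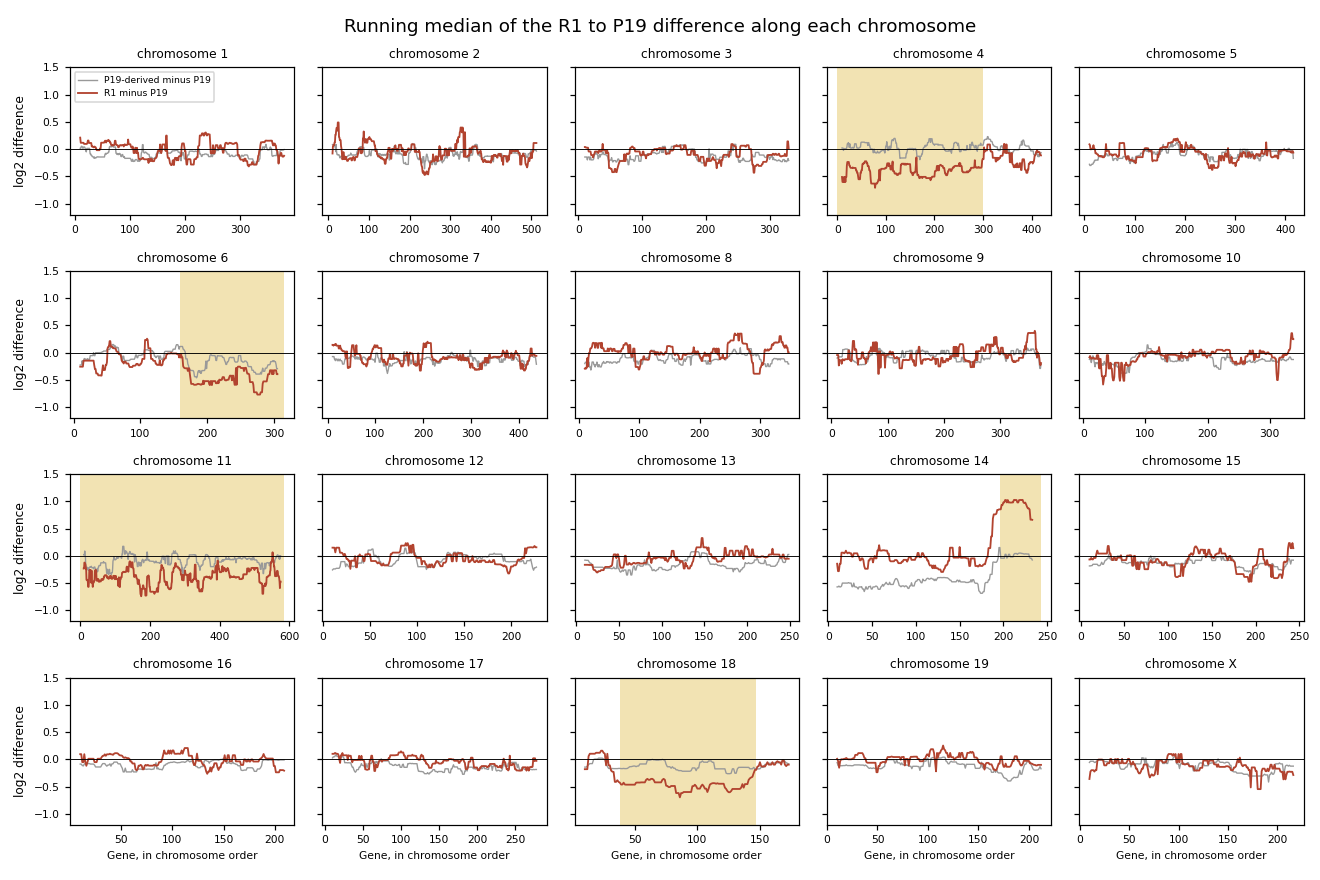
Running median over 21 genes of the log2 difference between R1 and P19 (red) and between the P19-derived stem cells and P19 (grey) along each chromosome, for genes with an intensity of at least 50 in either R1 or P19, in their order on GRCm38.p6, with the 5 blocks shaded. The red line steps to about 1 in the distal part of chromosome 14 and stays below 0 along chromosome 11 and in the shaded parts of chromosomes 4, 6 and 18.

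Some genes described above lie in these stretches, and those named here are not a full list. Rb1 is the first gene of the block of chromosome 14, and Mir17hg and Mir19a lie within it, with log2 differences of 2.17 ± 0.16 for Rb1, 1.07 ± 0.16 for Mir17hg and 1.09 ± 0.14 for Mir19a beside the median of 0.92 over the block. Akap11, Dgkh and Vwa8, a run of neighbours called higher, lie there as well, and so does Snora31 (1.81 ± 0.14). The call of Akap11 was lost without R1 replicate 3 (0.95) and without P19 replicate 3 (0.94). Chromosome 11, a lower block throughout, holds the run of Pctp, Tmem100, Mmd and Hlf, called lower. The runs of Ccl2, Ccl7 and Ccl11 and of Sox15, Mpdu1 and Cd68 on it were called higher. How far the shift of a block contributed to the call of a single gene in it was not tested.

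Promoter sequences were compared between called and other genes. Of 19938 genes, 15614 had a promoter in the RefSeq table (GRCm38.p6, 250 bases before the start to 50 after it). A promoter was taken as rich in CpG where its observed over expected CpG count was at least 0.6, which was so for 52.3% of all 15614. Among genes lower in R1 it was 69.1% of 515, and among genes higher in R1 55.2% of 581. Level moves with this share: 85.2% of 4696 uncalled genes with an intensity of at least 50 in either line had a CpG-rich promoter, more than either called set. Among the higher genes, the share was 46.0% where P19 was below the array median and 62.8% where it was above, and among the lower genes it was 52.4% and 75.8% for R1 in the same way.

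A promoter poor in CpG and one rich in it are shown by the 250 bases before the start of a gene that rose and of a gene that fell, with each CpG in capitals. Mmp3, a matrix metalloproteinase and the fourth largest rise, was at 6.73, 7.30 and 8.19 in P19 and 309, 304 and 267 in R1, and has 1 CpG there. Stk39, the fifth largest fall, has 43.
Mmp3 (chr9:7445572-7445821, strand +): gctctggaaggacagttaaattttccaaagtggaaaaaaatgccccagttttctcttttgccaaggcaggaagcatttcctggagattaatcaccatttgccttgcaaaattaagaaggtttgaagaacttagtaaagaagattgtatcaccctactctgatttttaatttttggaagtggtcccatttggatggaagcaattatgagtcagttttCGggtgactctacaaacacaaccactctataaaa
Stk39 (chr2:68471982-68472231, strand -): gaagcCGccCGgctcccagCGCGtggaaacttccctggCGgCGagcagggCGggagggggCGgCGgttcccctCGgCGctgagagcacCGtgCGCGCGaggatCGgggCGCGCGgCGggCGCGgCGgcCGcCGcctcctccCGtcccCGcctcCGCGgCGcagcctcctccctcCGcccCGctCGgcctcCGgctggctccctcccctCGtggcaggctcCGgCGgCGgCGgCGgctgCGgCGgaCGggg

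Both are written 5′ to 3′ in the direction of the gene, from RefSeq on GRCm38.p6. The motif TGACTCA, bound by AP-1 factors, was found on the reverse strand of the Mmp3 sequence, in which the gene's start lies just after the window. On either strand of the whole window, TGACTCA was in 5.51% of promoters of higher genes, 4.47% of those of lower genes and 4.53% of all. TATAAA was in 13.4%, 6.41% and 12.1%, CCAAT in 31.3%, 41.8% and 38.2%, and GGGCGG in 61.6%, 67.6% and 49.9%. AAGGTCA (2.75%, 3.30% and 3.79%), ATGCAAA (5.16%, 4.27% and 4.11%) and CACGTG (9.98%, 7.57% and 8.38%) completed the search. No motif searched contains another, and a match is a description of the letters alone.

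Probe sets without a single gene name also differed. Calls fell on 2135 of the 28853 probe sets (7.4%), with R1 higher in 1068 (3.7%) and lower in 1067 (3.7%), and the arrays did not overlap in 45.3%. Among the 5443 probe sets with no symbol, 121 were higher and 256 lower, of which 52 fell over 8-fold. Many of these are copies: 652 probe sets shared all 9 values with at least 1 other, in 206 sets of values. One such set, of 50 unnamed probe sets, was at 351, 457 and 689 on the P19 arrays and at 42.5, 29.6 and 32.01 on the R1 arrays, a log2 difference of -3.81 ± 0.22 (SE; adjusted p = 1.39e-08). Another, of 18 probe sets that each carry several symbols, was at 627, 621 and 468 in P19 and at 20.2, 19.4 and 32.2 in R1, a difference of -4.61 ± 0.18 (SE; adjusted p = 3.22e-10). With each set of values counted once, 1021 of 28407 were higher and 908 lower. Of the genes described above with their values, Snord118 has a probe set of this kind, and its call is therefore not a separate observation.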

How the data were processed

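Total RNA (100 ng) was labelled and hybridised to Affymetrix Gene 1.0 ST arrays, 3 for each of 3 lines. The deposited values are intensity values per probe set that the authors computed by RMA, which the submitters' processing notes name, on a linear scale. The version of RMA and the annotation were not given in the sources used here. The methods state a scaling of the median that the deposited columns do not show (array medians 16.5 to 17.5), so intensities are printed as deposited. RMA corrects the background, which leaves dim probe sets near a floor, so folds of dim genes are not exact.

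Values were taken to log2 and all 28853 probe sets were fitted over the 9 arrays with limma 3.58.1 (R 4.3.3). Probe sets with 1 gene symbol were reduced to the brightest per gene, giving 19938 genes, and a call needed an adjusted p under 0.01 and over 2-fold. Adjusted p-values are Benjamini-Hochberg over all probe sets, and n is 3 arrays per line. Named genes were the 20 largest rises and 20 largest falls, up to 6 called and 3 uncalled members of each list, the 10 brightest called genes of each line and the genes of runs; others are said to be named after their values were seen. Members and lists were chosen with earlier results of these data known. The procedure was tested on simulated data. The number of arrays limits the precision, with a median SD of log2 values of 0.106 in P19 and 0.121 in R1. Replicate numbers do not pair the arrays. Alternatives were other normalizations, a pseudocount, filters, the methods' ANOVA, a replicate block and arrays left out. Sequences and gene order came from RefSeq GRCm38.p6, to which 19856 genes matched.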

Additional observations from a re-analysis of the deposited data

How the results depend on the processing

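The counts changed by over 1.5 times under 2 alternatives. With 16 added to the intensities, 599 probe sets were higher in R1 and 489 lower, 409 genes were higher and 319 lower, and 129 list members were higher and 45 lower. With a limit of 4-fold, the counts were 274 and 193 probe sets, 186 and 97 genes, and 81 and 14 list members. Leaving out single arrays gave 1054 to 1105 probe sets higher and 1017 to 1205 lower, 757 to 794 genes higher and 648 to 817 lower, and 206 to 212 list members higher and 72 to 83 lower. With the replicate number as a block, 1069 and 1067 probe sets, 768 and 690 genes and 209 and 74 list members were called. Arrays of the same number did not deviate together (r = -0.00422, -0.0468 and -0.0444), so the numbers name the arrays only. Quantile normalization gave 806 genes higher and 616 lower, and centring each array on its median 735 and 743. Some alternatives were chosen after seeing the data. Averaging R1 replicates 1 and 2 gave 791 and 662 genes, and leaving out the chromosome blocks 649 and 499. Of 296 called genes under the naming rule, 198 kept their call under every alternative in which single genes were followed, and 0 reversed. Single genes were not followed under the 4-fold limit, the mean over all probe sets of a gene, or the removal of identical probe sets or chromosome blocks. A pseudocount took the call from 88, the methods' ANOVA after Benjamini-Hochberg adjustment from 24, and leaving out 1 array from 19. Signal near the floor of the array limits folds of dim genes.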
